A study of Drosophila melanogaster with 13 samples.

Results

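The odorant-binding protein (Obp) genes of Drosophila melanogaster were taken as every gene whose symbol begins with Obp and a digit, together with lush, a member of the family with its own name. The rule used names and no measured value, and it found 52 of the 13893 genes in the files, with 72 transcripts. RNA of dissected proboscises had been sequenced in 13 libraries of 4 groups, and the tissue is given as labellum, the tip of the proboscis that carries taste hairs. In the diet experiment, flies of the genotype labelled parental had spent 7 days on a high sugar diet (2 libraries) or on the control diet (2 libraries), at 200 proboscises a library. In the RNA interference experiment, Gr5a-GAL4/UAS-OGT RNAi flies (5 libraries) were set against Gr5a-GAL4/+ flies (Gal4 control, 4 libraries), at 20 proboscises a library. Flies of both of these genotypes had been on the high sugar diet for 7 days, so the second experiment holds no control diet. Gr5a-GAL4 is active in sweet taste neurons, whereas the RNA came from the whole proboscis. Library kits also differed (Ovation RNA-Seq for the diets, Ovation SoLo for the RNAi experiment), so levels of the 2 experiments are set side by side here and not tested against each other. The sex of the flies is not labelled. The replicates are called biological without a word on how the pools were formed, so p-values measure the spread between these libraries.

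Odorant-binding proteins are small secreted proteins that carry hydrophobic molecules. In insects many are made by the support cells around sensory neurons and released into the fluid of the sensory hair, where they can bind an odorant or tastant before it meets its receptor. In the fly the family is best known from the antenna, but taste hairs express members of their own, and others are made in fat body, glia or reproductive glands. The genes lie in clusters left by tandem duplication.

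Levels between genes are given in TPM, a gene's share of all transcripts on a scale that corrects for transcript length. Members held 0.851 and 1.36% of all TPM in the sugar diet libraries, against 1.42 and 1.44% in the control diet libraries. Their share was 3.51 to 3.72% in the OGT RNAi libraries and 3.34 to 3.61% in the Gal4 control libraries. Only 15 to 21 members reached 10 TPM in any one library, and 10 to 13 reached 100 TPM. The 6 members with the highest mean over the groups, Obp56g, Obp19d, Obp57c, Obp49a, Obp56d and Obp19b, made up 83.5 to 91.5% of the family's TPM.

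**Figure D1:**
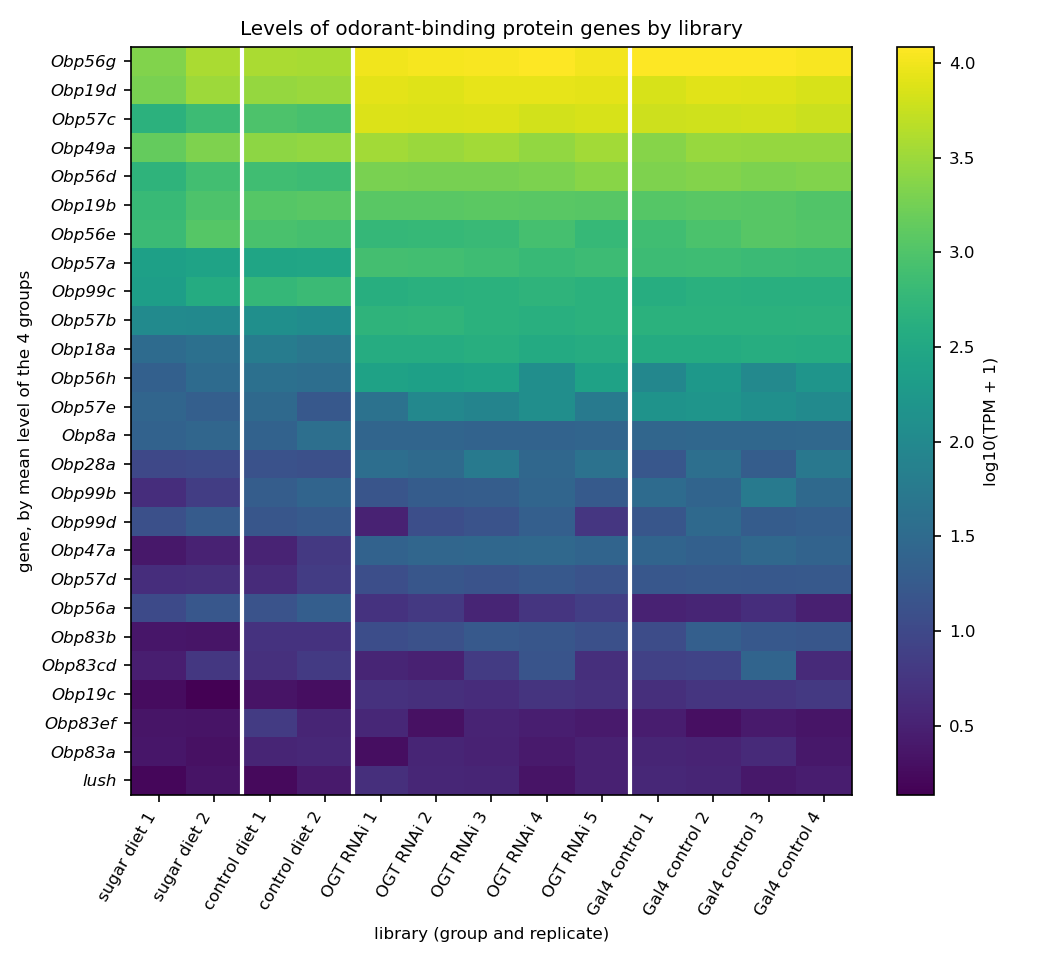
Levels of the 26 members tested in at least 1 experiment (rows, by mean level of the 4 groups) in each of the 13 libraries (columns, white lines between groups), as log10(TPM + 1). Obp56g and Obp19d are near the top of the scale in every library, and Obp57c, Obp18a and Obp56h are lower in the 4 diet libraries than in the 9 others.

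Obp56g (2R:19783484-19784043, minus strand) was the most abundant member in every library. It had 2153 and 3844 TPM on the sugar diet and 3787 and 3691 TPM on the control diet. In OGT RNAi replicates 1 to 5 it had 9962, 10596, 11086, 12124 and 10218 TPM, against 11897, 11910, 11760 and 11009 TPM in Gal4 control replicates 1 to 4. Among all genes its mean ranked 25th on the sugar diet, 23rd on the control diet, 14th under OGT RNAi and 12th in the Gal4 control. Besides the labellum, Obp56g is known as a seminal fluid protein of the male.

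Obp19d (X:20419613-20420979, plus strand), also called Pbprp2, came next, with 1938 and 3252 TPM on the sugar diet and 2910 and 3063 TPM on the control diet. It had 8221, 7810, 8755, 8631 and 8421 TPM in the OGT RNAi libraries and 7076, 7946, 7873 and 6995 TPM in the Gal4 control libraries. The sugar diet replicates lay on either side of both control diet replicates for Obp19d and for Obp56g.

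Obp57c (2R:20503584-20504202, plus strand) had 463 and 695 TPM on the sugar diet and 942 and 854 TPM on the control diet. Its level was 7508, 7243, 7562, 6525 and 6959 TPM in the OGT RNAi libraries and 6075, 6369, 6451 and 5814 TPM in the Gal4 control libraries. It ranked 152nd and 100th of all genes on the sugar and control diets, and 18th and 20th under OGT RNAi and in the Gal4 control. Kit, input and genotype all differed between the experiments and cannot be told apart as a source of this gap.

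Obp49a (2R:12690059-12690955, minus strand) belongs to the Plus-C branch, which carries extra cysteines, and is known from accessory cells of taste hairs, where it is needed for bitter compounds to suppress sweet taste. Its levels were 1422 and 2111 TPM on the sugar diet, against 2563 and 2741 TPM on the control diet. In the OGT RNAi libraries it had 3391, 3138, 3433, 2820 and 3394 TPM, against 2303, 2963, 2907 and 2909 TPM in the Gal4 control libraries. On the TPM scale the sugar diet libraries were both below the control diet libraries, and the RNAi and control ranges overlapped.

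Obp19b (X:20416733-20417812, plus strand), known to be required for the taste of some amino acids, had 618 and 943 TPM on the sugar diet and 1117 and 1197 TPM on the control diet. In the OGT RNAi libraries it had 1188, 1181, 1246, 1200 and 1152 TPM, against 1121, 1178, 1146 and 1021 TPM in the Gal4 control libraries. Between the 4 group means of Obp19b, 780 TPM on the sugar diet was the lowest, and the other 3 were between 1116 and 1193 TPM.

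Obp56d (2R:19702924-19703915, minus strand) had 504 and 761 TPM on the sugar diet and 739 and 700.0 TPM on the control diet. It had 1956, 1859, 1889, 2044 and 2403 TPM in the OGT RNAi libraries and 2098, 2264, 2007 and 2150 TPM in the Gal4 control libraries. Its groups overlapped in both experiments.

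The order of these 6 was clear within the second experiment, where the ranges of neighbours in the order did not overlap in either genotype. On the sugar diet the ranges of Obp56g and Obp19d overlapped, as did those of Obp19d and Obp49a. On the control diet Obp56g, Obp19d and Obp49a were separate in that order, while Obp57c overlapped with the next member, Obp56e (899 and 824 TPM on the control diet).

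Below the first 6, Obp56e, Obp57a, Obp99c and Obp57b had group means between 103 and 970 TPM. Obp18a averaged 35.0 ± 4.09 TPM on the sugar diet and 55.0 ± 8.20 TPM on the control diet (SD, n = 2 each). It averaged 380 ± 19.6 TPM under OGT RNAi (n = 5) and 372 ± 12.8 TPM in the Gal4 control (n = 4). Obp56h, whose knockdown is known to alter mating, averaged 26.8 ± 7.41 TPM on the sugar diet, 36.8 ± 2.20 TPM on the control diet, 225 ± 58.3 TPM under OGT RNAi and 130 ± 40.9 TPM in the Gal4 control. Obp8a, by contrast, had means of 24.8 to 29.8 TPM in all 4 groups. Obp57e, which is known from taste hairs and from the choice of egg-laying sites in related species, averaged 23.0 and 22.9 TPM on the sugar and control diets and 78.9 and 132 TPM under OGT RNAi and in the Gal4 control.

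Obp28a, Obp83a, Obp83b and lush, known from the antenna, were low, and no list of all antennal members was used. Obp28a, one of the most abundant antennal members, averaged 9.20 ± 0.600 TPM on the sugar diet and 12.1 ± 0.808 TPM on the control diet. It averaged 38.2 ± 11.2 TPM under OGT RNAi and 30.7 ± 17.0 TPM in the Gal4 control. Obp83a, Obp83b (also called Os-E) and lush, which is needed in antennal hairs for the response to the male pheromone cVA, had group means of at most 15.3 TPM. Odorant receptors specific to the antenna were near 0 as well, with a list of 9 antennal receptor genes summing to at most 3.67 TPM in any library.

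Of the 52 members, 26 passed the filter on low counts in neither experiment, and 6 of these (Obp46a, Obp58b, Obp56i, Obp51a, Obp59a and Obp22a) were at 0 in every library. Counting error alone allows up to 3 counts for a count of 0, which is 0.216 to 0.533 CPM (counts scaled to library size) at these depths. Another 9 (Obp99a, Obp58d, Obp50d, Obp47b, Obp50e, Obp19a, Obp56b, Obp50c and Obp50b) reached about 1 count at most. The remaining 11 (Obp85a, Obp69a, Obp84a, Obp44a, Obp56f, Obp83g, Obp56c, Obp58c, Obp73a, Obp93a and Obp50a) reached at most 30 counts, and the highest mean among them was 2.82 TPM for Obp85a, whose span lies within that of CG45263 on the same strand. Obp59a, known from the sensing of humidity, and Obp44a, known from glia, are among these 26.

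With members up to 100000 bases apart counted as neighbours, 36 lay in 8 clusters and 16 stood alone, and 29 of the 52 were on chromosome arm 2R. The Obp56 cluster held 9 members over 170992 bases, of which 4 averaged at least 10 TPM. Obp56g, the highest member of all, and Obp56i, at 0 in every library, are both in it. In the Obp57 cluster 4 of 5 members averaged at least 10 TPM, in the Obp99 cluster 3 of 4, and in the Obp19 cluster 2 of 4. The Obp50 cluster (5 members) and the cluster of Obp58 genes with Obp59a (4 members) had none, and their highest means were 0.126 and 0.207 TPM.

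The libraries held 5632598 to 8105908 estimated counts in the diet experiment and 8183507 to 13884994 in the other. Of sxc, the gene for the RNAi target OGT, OGT RNAi libraries had 138, 170, 134, 135 and 136 CPM, against 163, 142, 170 and 174 CPM in Gal4 control libraries (log2 change -0.19, edgeR adjusted p = 0.376). The knockdown was therefore not called in whole proboscis RNA, and 1 OGT RNAi library lay within the range of the Gal4 control. The yolk protein genes Yp1, Yp2 and Yp3, made in females, summed to 19.4 TPM in OGT RNAi replicate 2 and to at most 1.91 TPM in every other library. Without that library the log2 changes under OGT RNAi were -0.90 for Obp99b and 0.81 for Obp56h, which is close to the values with it. The 8 sweet taste receptor genes that mark labellar neurons summed to 12.5 to 57.7 TPM by library, with none at 0 in all libraries. The sugar diet replicates differed in the family: of 10 members of at least 20 CPM, 8 were lower in replicate 1 than in replicate 2, with a median log2 difference of -0.34, and 2 libraries cannot show which of them departs. The median was -0.16 for 211 other genes with transcripts of 400 to 800 bases and -0.01 for all genes of that level. Arc1 took 12.6 and 13.4% of counts on the sugar diet and 7.40 and 7.51% on the control diet. Of TPM it took 7.18 and 8.77% on the sugar diet and 4.66 and 4.95% on the control diet. On the TPM scale the median of all genes was shifted by -0.25 (log2) between the diets, and the source of this shift was not tested. The tests use counts with TMM scaling (trimmed mean of M-values).

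The first comparison asked how the family differed between the sugar diet and the control diet. Obp99c, Obp99b and Obp49a were called lower on the sugar diet and no member was called higher. The largest change was that of Obp99b, at 0.270 times its control diet level, followed by Obp99c at 0.557 times and Obp49a at 0.794 times. The other abundant members, Obp56g, Obp19d and Obp56d among them, were not called. Of 20 members tested, 3 (all lower) had an edgeR adjusted p under 0.05, against 6.47% of the 8825 genes tested, 3.35% lower and 3.12% higher. That balance depended on the scaling: limma on log2(TPM + 1) called 445 genes lower and 52 higher, where edgeR called 296 and 275.

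**Figure D2:**
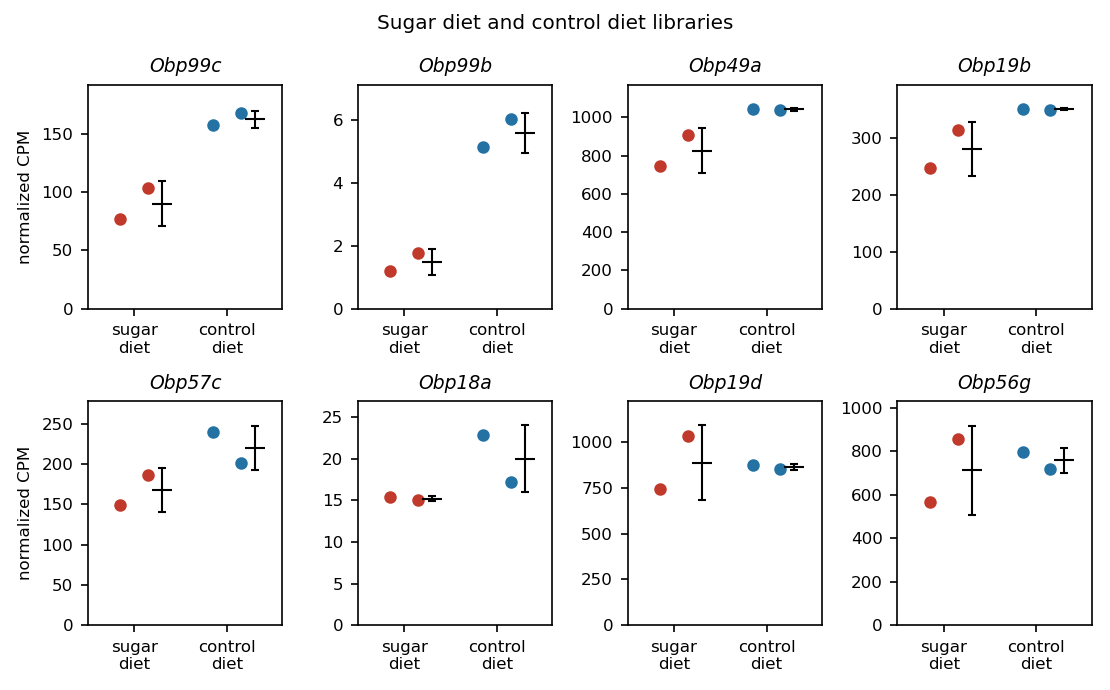
Normalized CPM of 8 members in each sugar diet library (red) and control diet library (blue). The dash is the mean and the bar the SD of 2 libraries, and axes start at 0. Both sugar diet points are below both control diet points for Obp99c, Obp99b, Obp49a, Obp19b, Obp57c and Obp18a, and the groups overlap for Obp19d and Obp56g.

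Obp99c (3R:29685736-29689311, minus strand) had 76.7 and 104 normalized CPM in the sugar diet libraries, against 158 and 168 in the control diet libraries. Both sugar diet libraries were below both control diet libraries, and the lower of them was replicate 1. The mean was 90.3 ± 19.2 CPM for the sugar diet, against 163 ± 7.36 CPM for the control diet (SD, n = 2 each). Its log2 change was -0.84 (SE 0.12), a fold of 0.557, with an edgeR adjusted p = 0.000517. In RNA of a whole organ, fewer cells of a type cannot be told apart from less RNA in each cell.

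Obp99b (3R:29716254-29716896, minus strand), listed also under the synonym tsx and described in fat cells of the adult head, had 1.19 and 1.76 CPM on the sugar diet, against 5.13 and 6.03 CPM on the control diet. These values rest on 6 and 11 counts on the sugar diet, against 41 and 53 counts on the control diet, without overlap. The log2 change was -1.89 (SE 0.38), a fold of 0.270, with an edgeR adjusted p = 0.00511. Without control diet replicate 2 the log2 change was -1.77 and the call was lost (adjusted p = 0.0789). Genes of the fat body moved as well: of 4 tested markers, Lsp1beta, apolpp and Mtp fell (log2 changes -1.35, -0.40 and -0.82) and to (takeout) rose (1.01). The 7 fat body markers in the files, none of them at 0 throughout, summed to 144 to 178 TPM on the sugar diet, against 245 to 278 TPM on the control diet. Their part in the result for Obp99b was not tested, nor was that of the sex of the flies, which is not labelled.

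Obp49a, the accessory cell member of bitter suppression, had 743 and 909 CPM on the sugar diet, against 1046 and 1036 CPM on the control diet. The sugar diet libraries were both lower, and they differed from each other by more than the control diet libraries did. Its log2 change was -0.33 (SE 0.09), a fold of 0.794, with an edgeR adjusted p = 0.0337. The call depended on single libraries: the log2 change was -0.19 (adjusted p = 0.0966) without sugar diet replicate 1, -0.33 (0.374) without control diet replicate 1 and -0.34 (0.309) without control diet replicate 2. Markers of sensillum support cells (nompA, pros, sv and Su(H)) were not called, with log2 changes from -0.17 to 0.07.

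Obp19b and Obp57c came next by p. Obp19b had 248 and 314 CPM on the sugar diet, against 352 and 349 CPM on the control diet (log2 change -0.32, edgeR adjusted p = 0.0618). Obp57c had 149 and 187 CPM on the sugar diet, against 240 and 201 CPM on the control diet (log2 change -0.39, adjusted p = 0.0682). Neither passed the threshold, although the groups did not overlap for either gene. Single libraries moved both: the log2 change of Obp19b was -0.16 without sugar diet replicate 1 and -0.50 without sugar diet replicate 2. That of Obp57c was -0.23 without sugar diet replicate 1, -0.56 without sugar diet replicate 2 and -0.26 without control diet replicate 1. With 1 library left in a group the spread came from the other group alone, so no new call is drawn from these fits.

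Obp18a had 15.42 and 15.03 CPM on the sugar diet, against 22.9 and 17.2 CPM on the control diet (log2 change -0.39, adjusted p = 0.274). At an unadjusted p under 0.05 there were thus 6 members, all lower, against 17.7% of all tested genes, 8.87% lower and 8.85% higher. Groups did not overlap for 7 members, again all lower, the seventh being Obp56h with 7.51 and 7.99 CPM against 9.76 and 9.09 CPM (log2 change -0.28). With 2 libraries in each group, 47.5% of all tested genes had groups that did not overlap, 23.9% lower and 23.5% higher.

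For the 2 most abundant members the sugar diet replicates went opposite ways. Obp19d had 742 and 1033 CPM on the sugar diet, against 876 and 854 CPM on the control diet (log2 change 0.04, SE 0.14). Without sugar diet replicate 1 its log2 change was 0.26, and without sugar diet replicate 2 it was -0.22. Obp56g had 568 and 858 CPM on the sugar diet, against 799 and 718 CPM on the control diet (log2 change -0.09, SE 0.24). Its value was 0.18 without sugar diet replicate 1 and -0.41 without sugar diet replicate 2. No direction is given for either gene.

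Obp56e had 201 and 272 CPM on the sugar diet, against 213 and 181 CPM on the control diet, the largest positive log2 change of the 20 members tested at 0.27 (SE 0.14, edgeR adjusted p = 0.387). Without sugar diet replicate 1 the log2 change of Obp56e was 0.47, and on the TPM scale it was -0.01. Without the filter on low counts Obp56e was called higher (edgeR adjusted p = 0.0355). Obp56d, at 180 and 225 CPM on the sugar diet against 208 and 181 CPM on the control diet, had a log2 change of 0.06. For the remaining tested members, Obp57e, Obp57a, Obp99d, Obp83cd, Obp56a, Obp28a, Obp57d, Obp57b and Obp8a, log2 changes were between -0.19 and 0.26 with adjusted p from 0.804 to 0.9995 (edgeR). The groups overlapped for all 9.

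Over the 20 members tested, 13 had a log2 change below 0, against 49.4% of all genes tested, and the median was -0.11, against 0.00 for all genes. Within the Obp99 cluster, Obp99b and Obp99c fell while Obp99d, which lies between them, had 3.16 and 4.00 CPM on the sugar diet, against 3.13 and 3.41 CPM on the control diet (log2 change 0.14, SE 0.35). Within the Obp57 cluster the log2 change was -0.39 for Obp57c, 0.02 for its neighbour Obp57b and 0.06 for Obp57a. In the Obp56 cluster the tested members ranged from -0.28 for Obp56h to 0.27 for Obp56e. DESeq2 gave an adjusted p for 13 members and called 2 of them, Obp99c and Obp49a, against 4.63% of all genes with an adjusted p. Obp99b (DESeq2 log2 change -1.91) was not among the 13. In the authors' deposited table Obp99c had an effect of -0.61 on the natural log scale (q = 0.00508). Obp99b had -1.32 (q = 0.00915) and Obp49a had -0.24 (q = 0.236).

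**Figure D3:**
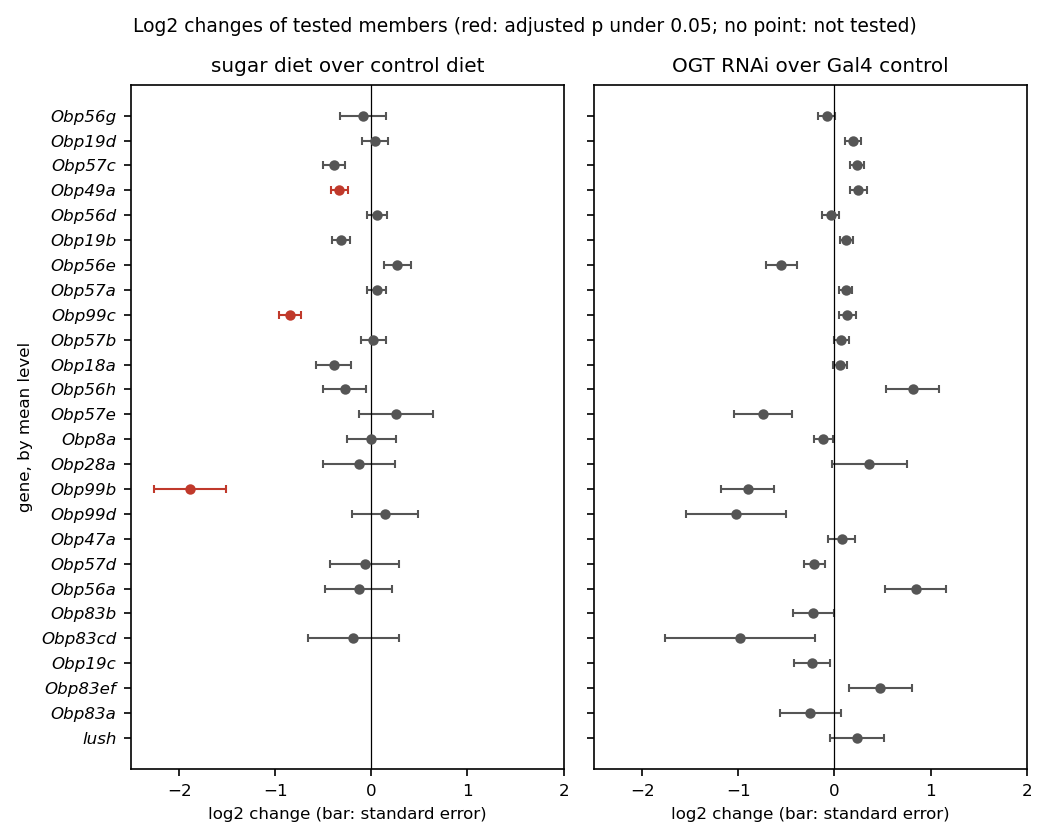
Log2 changes of the tested members for sugar diet over control diet (left) and OGT RNAi over Gal4 control (right), with standard errors as bars and called members in red. Obp99b, Obp99c and Obp49a are the 3 red points, all left of 0 on the left side, and there is no red point on the right.

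The second comparison asked how the family differed between OGT RNAi and Gal4 control flies, both on the sugar diet. No member was called by edgeR: 0 of 26 tested, against 1.27% of the 9399 genes tested, 1.04% higher and 0.223% lower, or 98 and 21 genes, where limma on log2(TPM + 1) called 58 and 35. The lowest adjusted p was that of Obp57c, followed by Obp56e and Obp99b. At an unadjusted p under 0.05 there were 8 members, 5 higher and 3 lower, against 12.9% of all tested genes, 7.42% higher and 5.47% lower. DESeq2 called 3 of the 30 members for which it gave an adjusted p, Obp57c higher and Obp56e and Obp99b lower, against 2.53% of all genes with one.

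**Figure D4:**
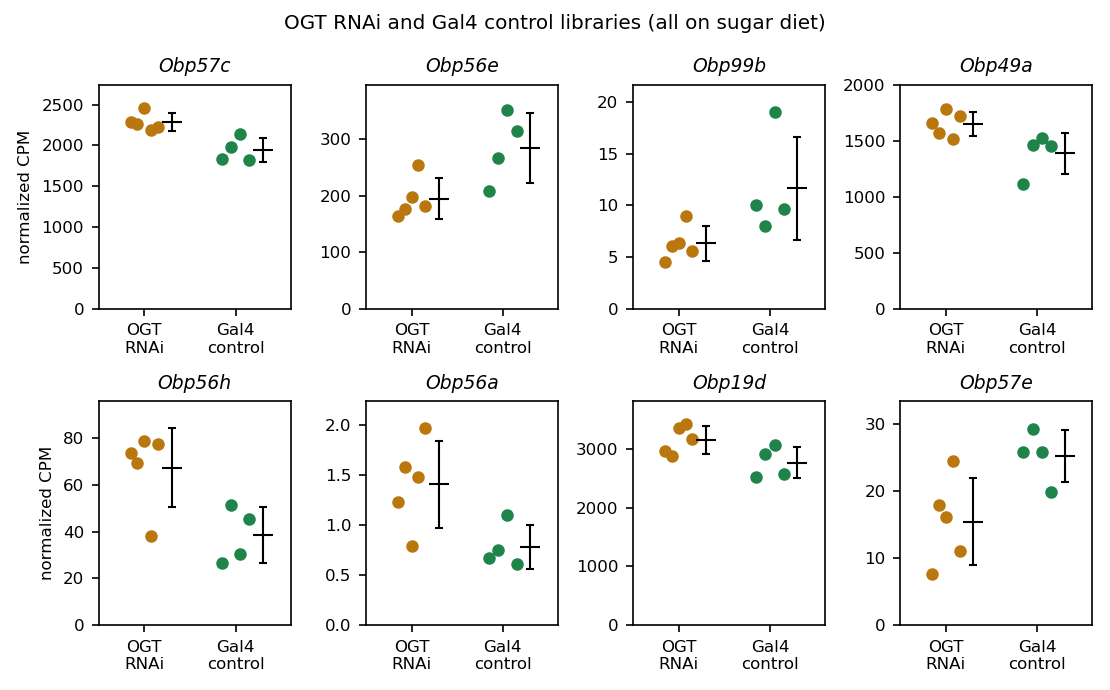
Normalized CPM of the 8 members with an unadjusted p under 0.05 in each OGT RNAi library (ochre) and Gal4 control library (green), all on the sugar diet. The dash is the mean and the bar the SD (n = 5 and n = 4), and axes start at 0. The genotypes are separate for Obp57c and overlap for the 7 other members.

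Obp57c had 2286, 2259, 2462, 2191 and 2220 CPM in OGT RNAi replicates 1 to 5, against 1829, 1976, 2133 and 1819 CPM in Gal4 control replicates 1 to 4. Every OGT RNAi library was above every Gal4 control library, by a narrow margin. The log2 change was 0.24 (SE 0.07, edgeR adjusted p = 0.155, DESeq2 adjusted p = 0.0289). It was the only member of 26 whose groups did not overlap, against 5.54% of all tested genes, 3.73% higher and 1.81% lower. On the sugar diet against the control diet its log2 change was -0.39, in an experiment with no shared libraries.

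Obp56e had 164, 176, 197, 255 and 181 CPM in the OGT RNAi libraries, against 208, 266, 351 and 315 CPM in the Gal4 control libraries. The genotypes overlapped through OGT RNAi replicate 4 and Gal4 control replicate 1. The log2 change was -0.55 (SE 0.17, edgeR adjusted p = 0.183), and without OGT RNAi replicate 4 it was -0.68 and called (0.03). DESeq2 gave an adjusted p of 0.0153, and the authors' deposited table has -0.37 on the natural log scale (q = 0.0420).

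Obp99b, the fat cell member that fell on the sugar diet, had 4.50, 6.06, 6.38, 8.99 and 5.61 CPM in the OGT RNAi libraries, against 9.98, 7.98, 19.0 and 9.60 CPM in the Gal4 control libraries. Gal4 control replicate 3 was the highest of the 9, and OGT RNAi replicate 4 overlapped with the Gal4 control. Its log2 change was -0.90 (SE 0.27, edgeR adjusted p = 0.183, DESeq2 adjusted p = 0.0217), or -0.57 (edgeR 0.233) without Gal4 control replicate 3. The 4 tested fat body markers were not called in this comparison: log2 changes were 1.34 for to, 0.55 for Lsp1beta, -0.12 for apolpp and -0.08 for Mtp. The list of 7 summed to 393 to 629 TPM in the OGT RNAi libraries and 303 to 439 TPM in the Gal4 control libraries, of which to alone made 127 to 317 TPM and 55.6 to 133 TPM. Obp99c, which fell on the sugar diet, had 129.9, 146, 154, 179 and 151 CPM in the OGT RNAi libraries, against 124, 143, 149 and 139 CPM in the Gal4 control libraries. The genotypes overlapped for it, with a log2 change of 0.13 (edgeR adjusted p = 0.577).

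Obp56h, the mating-related member, had 73.4, 69.3, 78.6, 37.9 and 77.6 CPM in the OGT RNAi libraries, against 26.6, 51.5, 30.3 and 45.5 CPM in the Gal4 control libraries. In 4 of 5 OGT RNAi libraries it was above every Gal4 control library, and replicate 4 lay within their range. The log2 change was 0.82 (SE 0.27, edgeR adjusted p = 0.261), and 0.95 (0.0522) without OGT RNAi replicate 4. Obp56a, at 0.787 to 1.97 CPM under OGT RNAi against 0.611 to 1.101 CPM in the Gal4 control, had the largest positive log2 change of the 26 members tested, 0.85 (SE 0.32, adjusted p = 0.262), from few counts.

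Obp49a had 1665, 1570, 1792, 1522 and 1726 CPM in the OGT RNAi libraries, against 1119, 1470, 1525 and 1457 CPM in the Gal4 control libraries. Its log2 change was 0.25 (SE 0.09, edgeR adjusted p = 0.245), and 0.16 (0.514) without Gal4 control replicate 1, its lowest library. Obp19d had 2970, 2884, 3373, 3433 and 3171 CPM, against 2528, 2916, 3068 and 2587 CPM in the Gal4 control, a log2 change of 0.19 (SE 0.08, adjusted p = 0.347). Both genes overlapped between genotypes.

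Obp57e, the taste hair member linked to egg-laying sites, had 7.55, 17.9, 16.1, 24.5 and 11.1 CPM in the OGT RNAi libraries, against 25.9, 29.3, 25.9 and 19.9 CPM in the Gal4 control libraries. Only OGT RNAi replicate 4 reached the range of the Gal4 control. The log2 change was -0.75 (SE 0.30, edgeR adjusted p = 0.355). Its neighbour Obp57d, whose annotated span lies wholly within that of the cuticle gene Cpr57A on the same strand and whose counts are therefore uncertain, had a log2 change of -0.21 (adjusted p = 0.445). Obp57a and Obp57b, on the other side of the cluster, had 0.12 and 0.07.

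Obp99d and Obp83cd had negative log2 changes with wide errors. Obp99d had 0.581, 2.98, 3.62, 5.79 and 1.31 CPM in the OGT RNAi libraries, against 3.75, 7.89, 5.05 and 5.33 CPM in the Gal4 control libraries (log2 change -1.03, SE 0.52, adjusted p = 0.466). Obp83cd ranged from 1.32 to 8.74 CPM under OGT RNAi and from 1.83 to 15.5 CPM in the Gal4 control (log2 change -0.99, SE 0.78, adjusted p = 0.678). Its highest value was in Gal4 control replicate 3, as for Obp99b, and without that library the log2 change of Obp83cd was -0.09, against -1.59 without OGT RNAi replicate 4. No direction is given for it.

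Abundant members with small changes had small standard errors. Obp56g had a median of 2735 CPM (2502 to 3367) under OGT RNAi and 3010 CPM (2854 to 3239) in the Gal4 control, a log2 change of -0.08 (SE 0.09). Obp56d had 684 CPM (650 to 860) and 747 CPM (707 to 787) as the medians and ranges of OGT RNAi and Gal4 control, a log2 change of -0.04 (SE 0.09). Obp19b had a log2 change of 0.12 (SE 0.07) and Obp18a of 0.06 (SE 0.07). For Obp83ef, Obp19c, Obp8a, Obp83b, Obp28a, lush, Obp83a and Obp47a, log2 changes were between -0.25 and 0.48 with edgeR adjusted p from 0.589 to 0.874.

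Over the 26 members tested, 12 had a log2 change below 0, against 49.2% of all genes tested, and the median was 0.06, against 0.00 for all genes. Among members too low to test, Obp83g had 14, 4, 15, 2 and 11 counts in the OGT RNAi libraries and 3, 1, 2 and 2 counts in the Gal4 control libraries, and the authors' deposited table gives it 1.19 on the natural log scale (q = 0.106). The counts of Obp83g overlapped between genotypes. Scaled to library size, its lowest OGT RNAi value was 0.246 CPM, from 2 counts. Its highest Gal4 control value was 0.225 CPM, from 3 counts. Counting error alone allows up to 3 counts for a count of 0, so no separation is read from these values.

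The maxillary palps, a pair of olfactory organs at the base of the proboscis, have their own odorant receptors. The list of 8 palp genes (Orco and 7 receptors) summed to 9.33 to 20.6 TPM in the OGT RNAi libraries and 9.02 to 26.0 TPM in the Gal4 control libraries, and to 3.88 to 5.05 TPM on the sugar diet and 5.64 to 7.04 TPM on the control diet. Or71a was the highest of the 8 in all 13 libraries and had its highest value in Gal4 control replicate 1 (15.2 TPM). Another 5 of the 8 (Or33c, Or42a, Or59c, Or85d and Or85e), grouped after their values were seen, had a different pattern. Their sum was 2.25 TPM in OGT RNAi replicate 3, 5.32 TPM in Gal4 control replicate 2 and 3.30 TPM in Gal4 control replicate 4, and at most 0.182 TPM in the 10 other libraries. The whole list does not divide the libraries in this way, since Gal4 control replicate 1 (17.3 TPM) was above Gal4 control replicate 4 (14.9 TPM) in it. Jhedup, an esterase of the odorant-degrading enzyme list, was high in the 3 libraries with the 5 receptors, with 8.41, 9.04 and 9.41 TPM, against at most 0.706 TPM elsewhere.

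**Figure D5:**
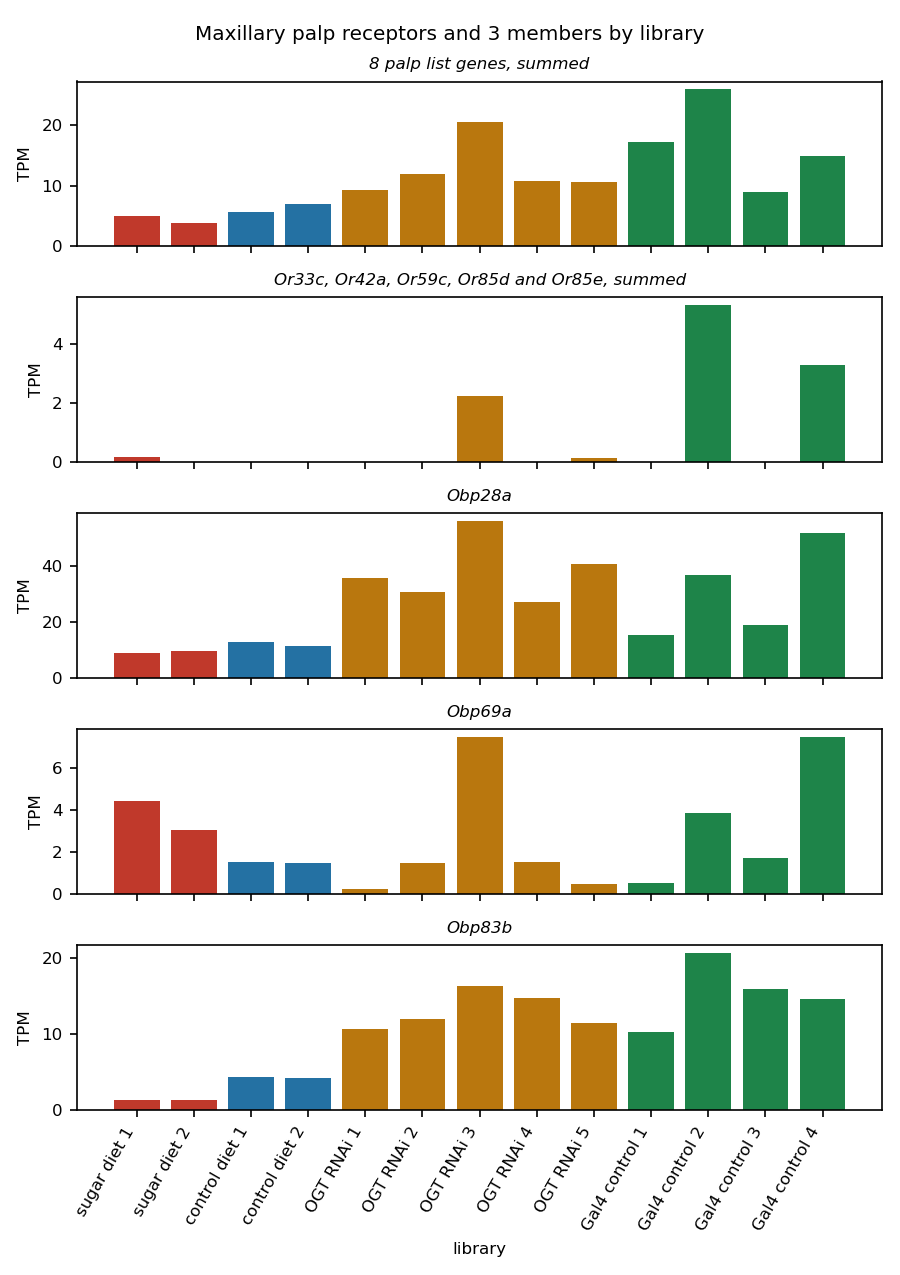
TPM by library of the 8 maxillary palp genes summed, of 5 of them summed (grouped after their values were seen), and of Obp28a, Obp69a and Obp83b, as bars from 0. The sum of the 8 genes is above 0 in every library. The 5 receptors sum to 2.25 to 5.32 TPM in OGT RNAi replicate 3 and Gal4 control replicates 2 and 4. Obp28a and Obp69a reach their highest values in OGT RNAi replicate 3 and Gal4 control replicate 4.

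Obp28a had 56.0 TPM in OGT RNAi replicate 3 and 36.8 and 51.9 TPM in Gal4 control replicates 2 and 4. In the libraries of this experiment with at most 2 counts of the 5 receptors it had 35.9, 30.9, 27.3 and 40.8 TPM under OGT RNAi and 15.2 and 18.8 TPM in the Gal4 control. Its log2 change between genotypes was 0.36 (SE 0.39, edgeR adjusted p = 0.771), and 1.00 (0.112) with the 3 libraries that had 10 or more counts of the 5 receptors left out, a setting chosen after the values were seen. These 3 libraries held the highest Obp28a values of their groups, so the larger change follows from the choice and no conclusion is drawn from it. Obp69a, an antennal member known from social behaviour, had 7.48 TPM in OGT RNAi replicate 3 and 3.86 and 7.48 TPM in Gal4 control replicates 2 and 4, against 0.246 to 1.71 TPM in the other 6 libraries of the experiment. For Obp83b the 3 libraries had 16.3, 20.6 and 14.5 TPM, and the other 6 had 10.3 to 15.9 TPM, so they overlapped. The span of Obp69a lies within that of CG32104 on the opposite strand. Estimated counts of Obp69a were whole numbers in every library, and reads shared by the pair were not measured. The part of palp tissue in these values was not tested.

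Genes of other perireceptor families, the proteins that handle odorants and tastants around the receptor, had 3 calls of 21 genes tested on the diets, all lower, against 6.47% of all genes. CheA87a, the 1 CheA gene tested, fell (35.1 ± 7.13 CPM on the sugar diet, against 56.6 ± 4.83 CPM on the control diet, log2 change -0.68, edgeR adjusted p = 0.00569). Of 4 Npc2 lipid-binding genes Npc2g fell (-0.59, adjusted p = 0.0396), and of 4 odorant-degrading enzymes Est-6, an esterase, fell (-1.09, adjusted p = 0.00404). None of 2 CheB genes, 2 genes of the OS-D family, the sensory neuron membrane proteins Snmp1 and Snmp2 or 6 odorant receptors was called. At an unadjusted p under 0.05 there were 6 of the 21, against 17.7% of all genes, and DESeq2 called 1 of the 14 with an adjusted p, CheA87a. Under OGT RNAi edgeR called 0 of 21, against 1.27% of all genes, with 3 at an unadjusted p under 0.05 (12.9% of all genes) and none by DESeq2. The 21 were 1 CheB, 3 CheA, 3 OS-D, 4 Npc2, 2 Snmp and 5 enzyme genes and 3 odorant receptors. EbpIII, of the OS-D family, stood at 7079 ± 561 CPM under OGT RNAi and 6592 ± 603 CPM in the Gal4 control, with a log2 change of 0.10 (adjusted p = 0.679). Sweet taste receptor genes, 5 tested on the diets and 8 under RNAi, had no call in either comparison.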

How the data were processed

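Reads had been trimmed with Trimmomatic 0.22, quantified with kallisto 0.43 and compared with sleuth, per the submitters' processing notes. The aligned transcript release, the strandedness of the kits and the sleuth model were not given in the sources used here. The deposited tables give estimated counts (expected counts, 71.8% of those above 0 more than 0.001 from a whole number, per transcript) and TPM per transcript, and the authors' effects on a natural log scale with p-values and q-values. Both were summed here over the transcripts of a gene (30449 targets, 13893 genes), and counts were rounded. Another 52 targets without a gene, holding 0.042 to 0.0569% of counts, were left out. Positions are those of the BDGP6 annotation, and the 31 members with a position in the deposited tables had the same one there. Strand was not stated, so any reads shared by Obp83cd and Obp83ef, which overlap on opposite strands, cannot be told apart. Obp50b and Obp50c have the same span on the same strand.

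Each experiment was fitted on its own with edgeR 4.0.16 in R 4.3.3: filterByExpr (minimum count 10, minimum total 15), TMM, robust quasi-likelihood F test, two-sided, Benjamini-Hochberg over all tested genes, called at an adjusted p under 0.05. Normalized CPM are TMM-scaled. Alternatives used DESeq2 1.42.0 and limma 3.58.1 on log2(TPM + 1) or log2(TPM + 0.1), other scaling, no filter, libraries left out, a replicate block and 1 fit of all 13 libraries. The procedure was tested on simulated data. Tables and figures used Python 3.11.15, pandas 2.3.3, numpy 2.4.6 and matplotlib 3.10.9. All members tested are named, with values of every library for called members and the 6 most abundant. Other members shown by library (those with an unadjusted p under 0.05 and Obp99d, Obp28a, Obp69a, Obp83b and Obp83g) were picked after their values were seen. The members and lists were chosen with earlier results of these data known. Intervals of counting error, as for a count of 0, cover counting only, since reads carry no molecular identifiers.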

Additional observations from a re-analysis of the deposited data

Results flagged for a closer look

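A single library lay far from the others of its group, by Dixon's test at the 95% level, in 3 of 52 groups of values, and chance flags about 1 in 20 groups. Obp49a had 1119 CPM in Gal4 control replicate 1, against 1457 to 1525 CPM in the 3 other Gal4 control libraries. Obp56h had 37.9 CPM in OGT RNAi replicate 4, against 69.3 to 78.6 CPM in the 4 other OGT RNAi libraries. Obp18a had 196 CPM in OGT RNAi replicate 3, against 172 to 177 CPM in the 4 others. Groups of 2 libraries, those of the diet experiment, were too small for this test.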

How the results depend on the processing

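Obp99c was called lower on the sugar diet under 12 of 12 alternatives (log2 change -1.13 to -0.65, adjusted p at most 0.012). Obp99b was called under 9 of 12, and DESeq2, among the 12, gave it no adjusted p. Obp49a was called under 5 of 12. The 3 called members became 6 without the filter on low counts, 5 with a replicate block, 1 with all 13 libraries in one fit and 1 to 7 with a library left out, where a lone library is assumed to vary like the other group. All calls of the diet comparison (571) became 306 with DESeq2, 318 with all 13 libraries and 195 to 938 with a library left out. Under OGT RNAi, the 119 calls became 254 with DESeq2, 63 with a replicate block, 42 to 264 with a library left out and 6 without the 3 libraries with 10 or more counts of 5 palp receptors. The 0 calls of members there became 3 with DESeq2 and 0 to 1 with a library left out. Same-numbered libraries were not paired in the main fits. Deviations from group means correlated at 0.00 for the diets, where 2 libraries in each group give both pairs the same value. For the 4 RNAi pairs they correlated at -0.25 to 0.16. These values do not settle whether same-numbered libraries belong together.

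Obp99c, Obp99b and Obp49a kept their sign throughout. Signs changed for members not called. On log2(TPM + 1) and log2(TPM + 0.1), where the median of all diet genes shifts by -0.25, the sugar diet changes were -0.25 and -0.25 for Obp19d, -0.2158 and -0.2161 for Obp56d, -0.0113 and -0.0114 for Obp56e, -0.1301 and -0.1393 for Obp99d, -0.2195 and -0.2212 for Obp57b and -0.2084 and -0.209 for Obp57a. Obp8a had 0.0009 with relative log expression factors, 0.003 with DESeq2, 0.0182 with all 13 libraries and 0.0078 with the replicate block. With a library left out, sugar diet changes ran from -0.2206 to 0.2578 for Obp19d, -0.2628 to 0.3357 for Obp8a, -0.3776 to 0.1114 for Obp56a, -0.1115 to 0.2155 for Obp56d, -0.4147 to 0.179 for Obp56g, -0.048 to 0.2879 for Obp99d, -0.1036 to 0.143 for Obp57b, -0.0059 to 0.1224 for Obp57a, -0.39 to 0.3722 for Obp57d, -0.8797 to 0.2178 for Obp83cd and -0.1748 to 0.8454 for Obp57e. RNAi changes of Obp47a ran from -0.0075 to 0.1908, and without the palp libraries they were -0.0044 for Obp18a, -0.0939 for Obp47a and 0.0242 for Obp56d. Their cause was not tested. Depth limits the low members most: Obp99b had 6 counts in a sugar diet library.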

Other observations

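Transcript shares within Obp57b and Obp56g differed between the experiments, which used different kits and inputs. The longer of 2 Obp57b transcripts (823 bases, against 477 bases for the other) held 64.0 to 69.2% of the gene's TPM on the sugar diet and 63.6 to 76.1% on the control diet. It held 28.0 to 34.9% under OGT RNAi and 25.5 to 34.4% in the Gal4 control. For Obp56g, the transcript of 495 bases held 17.9 to 29.0% on the sugar diet, 32.5 to 37.6% on the control diet, 39.5 to 44.6% under OGT RNAi and 40.0 to 43.0% in the Gal4 control. The diet ranges of this transcript did not overlap, with 2 libraries on each diet, and its share was not tested. Levels of 47.5% of all tested genes also did not overlap between the diets. The other Obp56g transcript has 492 bases, and how many reads tell the pair apart was not measured. For Obp56h, the transcript of 495 bases held 50.6 to 63.8% in the 9 libraries of the RNAi experiment and 0 to 64.6% in the diet libraries, from few counts, so the ranges overlap. Obp19d, Obp99b and Obp99c each came from a single transcript for at least 97.0% of their TPM in every library.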
